A study of Mus musculus with 8 samples.

Results

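The comparison described here set the testes of mice without Terc against those of mice with it, using all 8 arrays of the series: 4 labelled Terc(ko) and 4 labelled Terc(wt). The arrays were chosen by the Terc genotype in their titles, and every non-control probe set on them was kept, 12422 of the 12488 in the deposited table. Each side held the same Ku86 genotypes. The Terc(ko) side comprised 2 arrays of Ku86(ko)_Terc(ko) mice, null for both genes, and 2 of Ku86(wt)_Terc(ko) mice. The Terc(wt) side comprised 2 arrays of Ku86(ko)_Terc(wt) mice, null for Ku86 alone, and 2 of Ku86(wt)_Terc(wt) mice, which carried both genes. Per the labels, all Terc-null mice belonged to the third generation bred without the gene, so a difference between the sides joins the missing RNA to the generations spent without it, and these cannot be told apart. The scanner records list separate animals for the arrays, with a pool of 3 mice for Ku86(ko)_Terc(ko) replicate 1 and a repeated hybridisation for Ku86(wt)_Terc(wt) replicate 1. The age and strain of the mice are not given in the sources used here.

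Telomerase adds repeats to chromosome ends by copying a template within its RNA subunit, Terc, with the reverse transcriptase Tert. The male germ line is among the adult mouse tissues in which the enzyme is active, and in mice bred without Terc the telomeres shorten from one generation to the next. Germ cells of the testis develop in contact with Sertoli cells inside tubules that are wrapped in contractile peritubular cells, while steroid-producing Leydig cells lie between the tubules. Ku86, the product of Xrcc5, binds DNA ends in non-homologous end joining.

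Signals were fluorescence intensities in arbitrary units from Affymetrix MG_U74Av2 arrays. The median signal per array ran from 60.5 to 73 on the Terc(ko) arrays and from 49.7 to 67.3 on the Terc(wt) arrays, and 15.6% to 26.0% of its probe sets did not exceed 11.8, the floor applied ahead of the log2 transform. Transcripts of late germ cells were among the brightest on every array. The protamine gene Prm1 gave 13783 to 18507 on the Terc(ko) arrays and 15152 to 17271 on the Terc(wt) arrays. The Sertoli cell gene Clu, a secreted chaperone, was also well above the floor everywhere, at 511 to 1410 on the Terc(ko) arrays and 397 to 976 on the Terc(wt) arrays, although the scanner records call the samples germ cells. Terc itself has no probe set here, so the Terc labels could not be checked against its RNA. Xrcc5 went against its label: probe set 96063_at gave 259 to 459 on the 4 arrays labelled Ku86(ko) and 11.1 to 75.6 on the 4 labelled Ku86(wt), and the second Xrcc5 probe set was under the floor on every array. Since both Ku86 labels stand on both sides in equal number, the average Terc difference is the same whichever way they run, whereas every statement below about one Ku86 genotype holds for the label only.

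Most of the testis transcriptome did not separate the Terc genotypes. The 4 Terc(ko) signals lay above all 4 Terc(wt) signals at 193 of the 12422 probe sets (1.55%) and below all of them at 61 (0.491%). Of the 7282 probe sets with enough signal to be tested, 113 lay above (1.55%) and 52 below (0.714%). These non-overlapping probe sets are described, with no test of their number. Were the 8 arrays interchangeable, about 1 in 70 probe sets would lie above and 1 in 70 below. The share above (1.55%) was near that rate, and the share below (0.491%, or 0.714% of the tested probe sets) was under it. Any of the genes described can thus separate by chance, and their number is not read as an effect of Terc. The limma model, with Benjamini-Hochberg adjustment over all 7282 probe sets, called only 1 probe set for the average Terc effect (0.0137%), and this was one for Pla2g12a. At an unadjusted p under 0.05 the same fit passed 385 probe sets (5.29%), of which 307 were higher in Terc(ko) (4.22%) and 78 lower (1.07%).

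The 2 directions differed in brightness and in size. The 113 probe sets above differed by 0.20 to 1.75 on the log2 scale, with a median of 0.57, and their median signal was 101. The 52 below differed by -2.29 to -0.13, with a median of -0.33, and their median signal was 493, against 167 over all tested probe sets. The higher group was thus dimmer than the tested probe sets as a whole, and the lower group brighter. Ku86(wt)_Terc(wt) replicate 1, the only array of scan day 3, had the lowest median signal of all arrays at 49.7. It also had the largest share of probe sets at or under the floor, 26.0%. Its part in this contrast was not tested. At an unadjusted p under 0.05, 74 of the 113 and 21 of the 52 passed.

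The balance between the directions rested on how the arrays were scaled. With the signals as deposited, 76.0% of the non-overlapping probe sets were higher in Terc(ko). After quantile normalization, 96 were higher and 126 lower, or 43.2% higher. After each array was centred on its median, 78 were higher and 349 lower, or 18.3% higher. The median Terc difference over all tested probe sets was 0.04 as deposited, -0.01 after quantile normalization and -0.14 after median centring, so no direction is read from the totals. Under all 3 scalings, 56 probe sets lay above and 32 below, and 32 and 23 of these were among the tested ones.

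**Figure D1:**
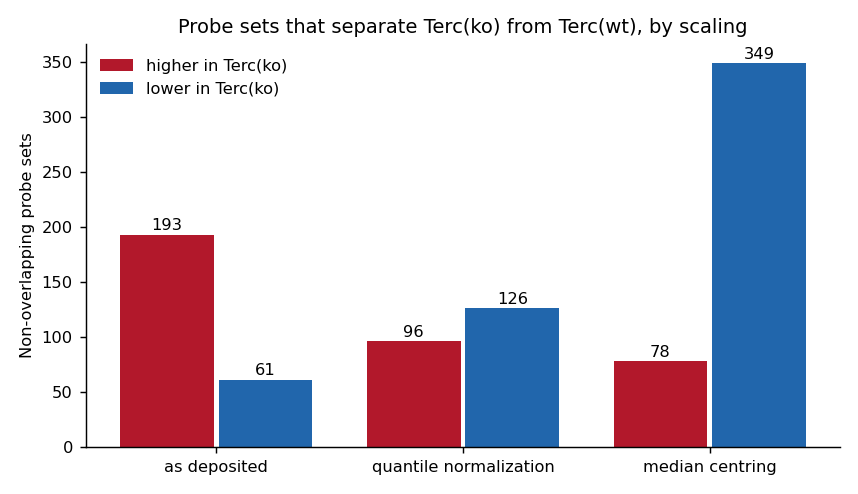
Number of probe sets (vertical axis) whose 4 Terc(ko) signals all lay above (red, left bar) or all below (blue, right bar) the 4 Terc(wt) signals, of 12422, under 3 scalings of the arrays. The counts were 193 and 61 as deposited, 96 and 126 after quantile normalization, and 78 and 349 after median centring.

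Values per array are given below in a fixed order, Ku86(ko) replicates 1 and 2 and then Ku86(wt) replicates 1 and 2, for Terc(ko) and then for Terc(wt). Pla2g12a, which encodes a secreted phospholipase A2 and so helps release fatty acids from membrane lipids, fell on all Terc(ko) arrays. Probe set 104343_f_at gave 331, 426, 297 and 568 on the Terc(ko) arrays, against 2212, 1301, 1781 and 2661 on the Terc(wt) arrays. The brightest Terc(ko) array stayed well short of the dimmest Terc(wt) array. The means were 405 ± 121 in Terc(ko) and 1988 ± 583 in Terc(wt) (SD, n = 4 each), a ratio of 0.204 and a log2 difference of -2.29 ± 0.239 (SE), with an adjusted p of 0.00477 in limma. The difference was -2.18 among the arrays labelled Ku86(ko) and -2.41 among those labelled Ku86(wt). It was -2.74 between the 2 arrays of scan day 1 and -2.15 over the 5 arrays of scan day 2. The sign within a scan day is fixed by the choice of non-overlapping probe sets, and scan day 3 held no Terc(ko) array.

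The second probe set of the gene, 104342_i_at, was far dimmer. It gave 39.5, 39.9, 53.5 and 16.5 in Terc(ko), against 59.4, 59.1, 76.9 and 81.3 in Terc(wt), again with no overlap, and its difference was -0.99 with an unadjusted p of 0.0294 and an adjusted p of 0.909. Without Ku86(wt)_Terc(ko) replicate 2, the lowest array, it was -0.57. Pla2g12a was thus 1 of only 2 genes with several tested probe sets that all separated the groups. The probe sets described below for Psmd12 (93971_f_at), Cadm1 (93604_f_at), Hoxc9 (92891_f_at) and Lamb1 (162263_f_at) have the same suffix as 104343_f_at. It marks probes shared with related sequences, so the signal of 104343_f_at may include other transcripts, as may theirs. The call was lost with Ku86(wt)_Terc(wt) replicate 2 left out (adjusted p 0.0766), with scan day as a block (0.0512), without the filter on dim probe sets (0.319) and without the variance trend (0.217). Its difference stayed between -2.52 and -2.06 in the 18 settings run, and it was called in 14 of them.

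The promoter of Pla2g12a is shown because it is the only called gene, and that of the stress gene Ppp1r15a because its difference was the second largest above. Both are the RefSeq windows of assembly GRCm38.p6 that run 5′ to 3′ on the gene's strand from 250 bases before the annotated start to 50 after it. Capitals mark matches to 4 short motifs searched on both strands. They were the CCAAT box, the GC box with the letters GGGCGG, the TATA box with the letters TATAAA, and the core of the cyclic AMP response element with the letters TGACGT.
Pla2g12a, chr3:129880934-129881233, plus strand: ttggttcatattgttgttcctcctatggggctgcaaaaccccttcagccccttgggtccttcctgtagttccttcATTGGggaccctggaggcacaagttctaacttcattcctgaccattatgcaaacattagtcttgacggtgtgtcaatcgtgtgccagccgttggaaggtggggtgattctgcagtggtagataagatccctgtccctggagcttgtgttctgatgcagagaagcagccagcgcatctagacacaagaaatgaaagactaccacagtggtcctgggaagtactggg
Ppp1r15a, chr7:45526219-45526518, minus strand: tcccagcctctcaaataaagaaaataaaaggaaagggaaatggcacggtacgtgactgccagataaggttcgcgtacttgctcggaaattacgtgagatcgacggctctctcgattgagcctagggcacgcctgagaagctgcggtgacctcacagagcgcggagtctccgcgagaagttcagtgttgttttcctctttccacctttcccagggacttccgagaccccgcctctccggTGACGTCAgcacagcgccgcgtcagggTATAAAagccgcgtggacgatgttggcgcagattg
The Pla2g12a window held 1 match, to CCAAT on the opposite strand. The Ppp1r15a window held 1 TATAAA match and 2 overlapping TGACGT matches, 1 on each strand, which together form the palindrome in capitals.

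Promoter windows were found for 78 of the 103 genes with a probe set above and for 36 of the 45 with one below. TGACGT was present in 12.8% of the windows above and 8.33% of those below, against 12.3% of the 4456 windows of all tested genes and 7.44% of all 27025 windows. GGGCGG was present in 56.4% above and 44.4% below, against 62.7% of tested genes and 35.6% of all windows. CCAAT was present in 34.6% and 33.3%, against 39.3% and 37.8%. TATAAA was present in 12.8% and 11.1%, against 8.37% and 14.1%. These shares are descriptions of letter matches and were not tested.

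The 15 genes with the largest non-overlapping differences above are taken by role, starting with stress and detoxification. Ppp1r15a, also known as Gadd34, directs protein phosphatase 1 to the initiation factor eIF2α and so restores translation after stress. Its probe set 160463_at gave 94.6, 159, 174 and 126 in Terc(ko), against 45.5, 37.6, 80.9 and 45.9 in Terc(wt). The lowest Terc(ko) array stood only slightly above the highest Terc(wt) array, and after median centring the groups overlapped. The log2 difference was 1.42 ± 0.293 (SE), a ratio of means of 2.63, with an adjusted p of 0.511 in limma. Ephx1, a microsomal epoxide hydrolase, gave 175, 104, 61.5 and 201 in Terc(ko), against 40.3, 57.9, 52.9 and 52.9 in Terc(wt), a difference of 1.28 (adjusted p 0.894). Its Terc(ko) values varied widely, the difference was 0.85 without Ku86(wt)_Terc(ko) replicate 2, and the groups overlapped in both other scalings.

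Msrb1, a selenoprotein that reduces oxidised methionine, gave 140, 114, 101 and 145 in Terc(ko), against 58.3, 40, 56.2 and 85.3 in Terc(wt). Its groups stayed apart in all 3 scalings, with a difference of 1.09. Prxl2a, a peroxiredoxin-like protein, gave 168, 197, 105 and 109 in Terc(ko), against 98.8, 17.8, 101 and 88.3 in Terc(wt). Its difference of 1.15 was 0.53 without Ku86(ko)_Terc(wt) replicate 2, the low value, and 1.77 without Ku86(ko)_Terc(wt) replicate 1. It was 2.12 among Ku86(ko) arrays but 0.18 among Ku86(wt) arrays. The groups overlapped in both other scalings. A second Prxl2a probe set overlapped between the groups as deposited, with a difference of 0.12.

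Blcap, which encodes a small membrane protein first described in bladder cancer, had the largest difference above. It gave 72.7, 92.6, 85.8 and 102 in Terc(ko), against 26.2, 22.8, 28.3 and 27.3 in Terc(wt). The means were 88.2 ± 12.1 in Terc(ko) and 26.1 ± 2.39 in Terc(wt) (SD, n = 4 each), a ratio of 3.37. The difference was 1.75 ± 0.327 (SE), identical in both Ku86 genotypes at 1.75, and did not pass limma after adjustment (unadjusted p 0.000185, adjusted p 0.287). Psmd12, a subunit of the proteasome lid, gave 171, 195, 183 and 164 in Terc(ko), against 50.0, 120, 101 and 109 in Terc(wt), a difference of 0.98 that also separated in all 3 scalings.

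**Figure D2:**
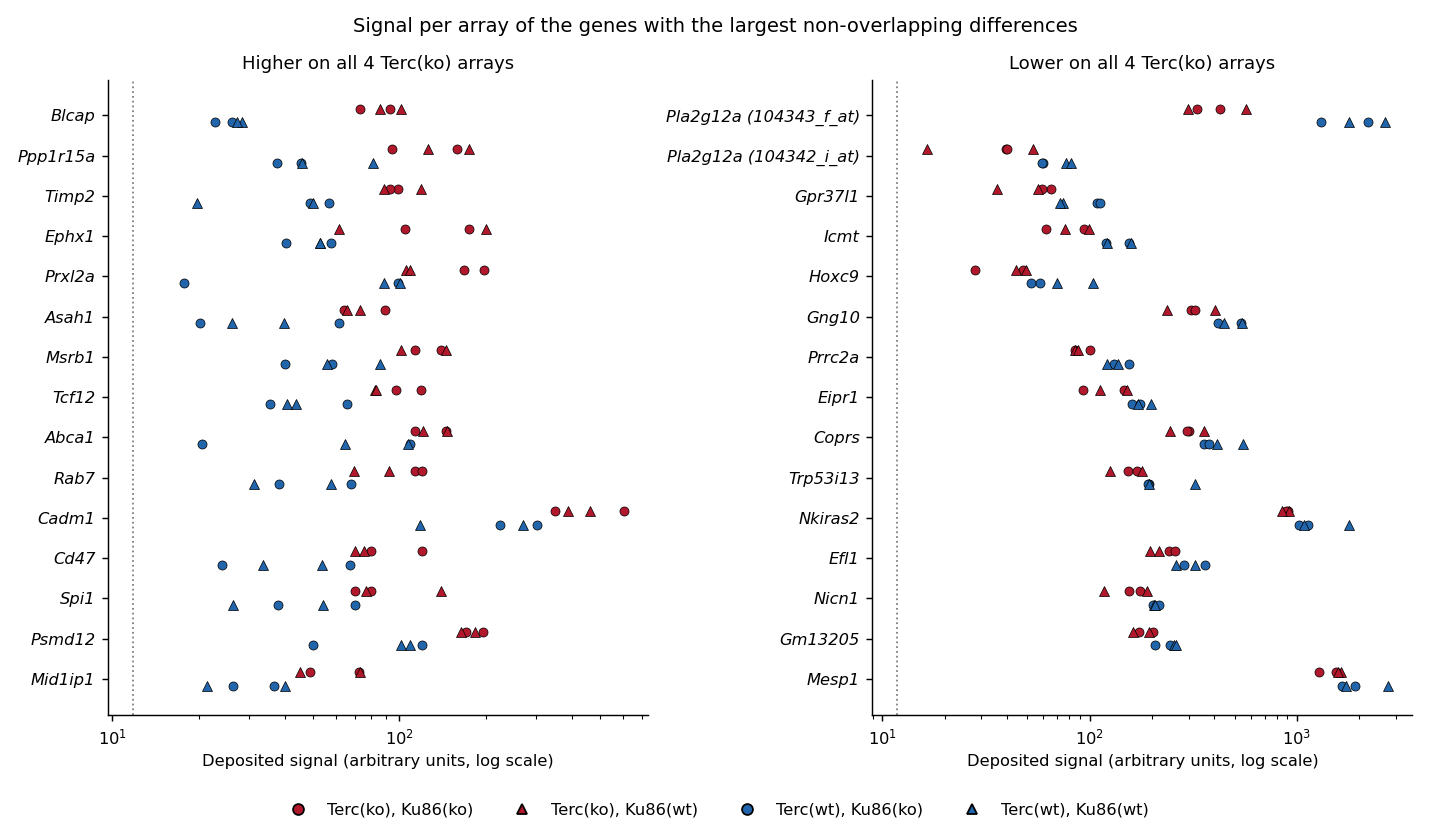
Deposited signal (horizontal axis, arbitrary units, log scale) on each of the 8 arrays for the 15 largest non-overlapping differences above (left) and below (right). Red points in the upper row of each gene are Terc(ko) and blue points in the lower row Terc(wt). Circles are arrays labelled Ku86(ko) and triangles those labelled Ku86(wt), and the dotted line is the floor of 11.8. Blcap lay at 72.7 to 102 in Terc(ko) and 22.8 to 28.3 in Terc(wt), and Pla2g12a (104343_f_at) at 297 to 568 in Terc(ko) and 1301 to 2661 in Terc(wt).

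Genes of endosomes, lysosomes and lipid handling came next. Rab7, the small GTPase of late endosomes, gave 114, 120, 91.8 and 69.3 in Terc(ko), against 67.7, 38.2, 57.8 and 31.3 in Terc(wt), a difference of 1.05. The gap was narrow, the groups overlapped after quantile normalization and after median centring, and the other Rab7 probe set, 95785_s_at, had a difference of 0.04. Asah1, the lysosomal acid ceramidase, gave 64.4, 89.2, 65.7 and 73.2 in Terc(ko), against 61.7, 20.3, 26.1 and 39.6 in Terc(wt), a difference of 1.10 that was 0.70 without Ku86(ko)_Terc(wt) replicate 2 and overlapped in the other scalings. Abca1, a transporter that exports cholesterol, gave 145, 114, 121 and 147 in Terc(ko), against 20.5, 109, 64.8 and 107 in Terc(wt), and its groups likewise overlapped in the other scalings. Its difference of 1.06 was 0.46 without Ku86(ko)_Terc(wt) replicate 1, the low value, 1.66 without Ku86(ko)_Terc(wt) replicate 2, and 0.19 on scan day 2 alone. Mid1ip1, a protein that activates acetyl-CoA carboxylase, was the other gene with all its tested probe sets apart. Its differences were 0.96 and 0.47, and neither probe set separated the groups after rescaling.

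The cell surface and matrix genes followed. Timp2, an inhibitor of matrix metalloproteinases, gave 99.2, 93.1, 88.4 and 119 in Terc(ko), against 48.9, 56.9, 19.7 and 50.2 in Terc(wt). The difference was 1.28 ± 0.34 (SE, adjusted p 0.894), 0.87 among Ku86(ko) arrays and 1.70 among Ku86(wt) arrays, and the groups stayed apart in all 3 scalings. Cadm1, an adhesion molecule that spermatogenic cells use to hold on to Sertoli cells in the mouse, gave 350, 604, 388 and 460 in Terc(ko), against 224, 302, 118 and 270 in Terc(wt) at 93604_f_at, a difference of 1.03. Its other tested probe sets, 93605_r_at and 93606_s_at, overlapped between the groups, with differences of 0.51 and 0.06. Cd47, a surface protein that inhibits phagocytosis, gave 79.7, 120, 70.0 and 75.4 in Terc(ko), against 24.1, 67.6, 33.5 and 53.7 in Terc(wt), a difference of 1.03 that was 0.65 without Ku86(ko)_Terc(wt) replicate 1. Vcam1, an adhesion molecule, gave 111, 125, 112 and 84.0 in Terc(ko), against 45.6, 69.0, 65.4 and 60.7 in Terc(wt) at 92558_at, a difference of 0.85, while its 2 other probe sets overlapped with differences of 0.48 and 0.34.

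Transcription factors were represented by Tcf12, a basic helix-loop-helix partner protein, and Spi1, the PU.1 factor of myeloid cells. Tcf12 gave 97.3, 119, 82.6 and 83.1 in Terc(ko), against 35.6, 65.8, 40.7 and 43.8 in Terc(wt), a difference of 1.06. Spi1 gave 70.1, 79.7, 76.3 and 139 in Terc(ko), against 37.8, 69.9, 26.4 and 54.4 in Terc(wt), a difference of 0.99 with the nearest arrays almost touching. Both stayed apart in all 3 scalings. The macrophage and immune list, to which Spi1 does not belong, had 8 of 12 genes above 0 with a median of 0.15. After median centring it had 5 of 12 and -0.03, against 1601 of 5530 and -0.14 over all genes. None of the list's genes separated the groups.

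After Pla2g12a, the 13 other genes with the largest differences below moved by 0.39 to 0.77. Gpr37l1, a G protein-coupled receptor best known from glia, gave 65.4, 59.2, 56.2 and 35.8 in Terc(ko), against 109, 112, 74.7 and 71.8 in Terc(wt), a difference of -0.77 (adjusted p 0.904). Icmt, the methyltransferase that completes the processing of prenylated proteins such as Ras, gave 93.9, 62.0, 76.1 and 99.9 in Terc(ko), against 120, 155, 121 and 158 in Terc(wt), a difference of -0.75. Gng10, a G protein gamma subunit and thus itself of a prenylated family, gave 309, 322, 401 and 236 in Terc(ko), against 537, 419, 446 and 544 in Terc(wt), a difference of -0.63. Prrc2a, an RNA-binding protein, had tight groups at 101, 85.1, 84.7 and 87.6 in Terc(ko), against 155, 131, 137 and 121 in Terc(wt), a difference of -0.60.

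Hoxc9, a homeobox transcription factor, was dim, at 48.0, 27.9, 44.3 and 49.4 in Terc(ko) against 52.3, 57.7, 69.4 and 104 in Terc(wt). The rest of these genes were brighter and moved less. Eipr1, which acts with endosomal tethering complexes, differed by -0.51, and Coprs, a cofactor of the arginine methyltransferase Prmt5, by -0.50. Of the other tested Coprs probe sets, 161906_f_at went the other way at 0.14 and the brighter 96779_f_at the same way at -0.18. Both overlapped between the groups. Trp53i13 differed by -0.49, and Nkiras2, an inhibitor of NF-κB signalling, by -0.46. Efl1, a GTPase of large ribosomal subunit maturation, differed by -0.43, and Nicn1, a protein of the tubulin polyglutamylase complex, by -0.41. Gm13205 also differed by -0.41 and Mesp1, a mesoderm transcription factor, by -0.39. Without Ku86(wt)_Terc(wt) replicate 1, the highest array for each, Trp53i13 differed by -0.31, Nkiras2 by -0.28 and Mesp1 by -0.22. Without Ku86(wt)_Terc(ko) replicate 2, Nicn1 differed by -0.24. Of the 15 probe sets with the largest differences below, Gng10 overlapped after median centring and Mesp1 after quantile normalization. The other 13 stayed apart in all 3 scalings. Median centring lowered every Terc difference alike, that of Gpr37l1 from -0.77 to -0.95, so it favours separation below over separation above.

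Probe sets of one gene gave a check that the rule did not use. For 36 genes with a non-overlapping probe set there were 41 other tested probe sets, and 31 of these differed in the same direction, 21 of 27 for genes above and 10 of 14 for genes below. Over all genes, 57.5% of differences were above 0. Probe sets of a gene share its RNA on the same arrays and are not independent.

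The Terc difference was then compared between the Ku86 labels, which use separate arrays. Across the 7282 tested probe sets, the Terc difference among Ku86(ko) arrays and that among Ku86(wt) arrays had a Pearson correlation of -0.0315, and 47.2% had the same sign in both. The probe sets share 2 arrays per genotype and are not independent replicates. The median difference was -0.01 among Ku86(ko) arrays and 0.11 among Ku86(wt) arrays. Across probe sets the 2 differences thus did not track each other. limma called 0 probe sets for the interaction (0%), with 367 at an unadjusted p under 0.05 (5.04%) and a smallest adjusted p of 0.124.

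The 4 probe sets with the smallest interaction p show large differences of opposite sign or unequal size that did not pass. Hus1, a clamp protein of the DNA damage checkpoint, gave 73.6, 27.9, 214 and 292 in Terc(ko), against 27.7, 37.9, 14.3 and 13.7 in Terc(wt). It was high on both Ku86(wt)_Terc(ko) arrays, and its average Terc difference of 2.32 was larger in size than that of Pla2g12a but did not pass (adjusted p 0.267). Its groups overlapped. Its 2 other probe sets, both too dim to test, averaged 32.2 and 22.4 in Terc(ko), against 40.1 and 18.5 in Terc(wt). Tmem129, which in human cells tags misfolded proteins with ubiquitin, gave 133, 114, 165 and 625 in Terc(ko), against 663, 426, 36.1 and 56.2 in Terc(wt), a difference of -2.11 among Ku86(ko) arrays and 2.83 among Ku86(wt) arrays. Scx, a transcription factor of tendon and Sertoli cells, ran the other way, at 2.11 among Ku86(ko) arrays and -2.62 among Ku86(wt) arrays. Ift46, a protein of intraflagellar transport, differed by -0.57 among Ku86(ko) arrays and 2.39 among Ku86(wt) arrays at 161949_at, while its brighter probe set 97423_at had an average Terc difference of -0.17. The second Tmem129 probe set, 97392_at, likewise differed by only -0.17.

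**Figure D3:**
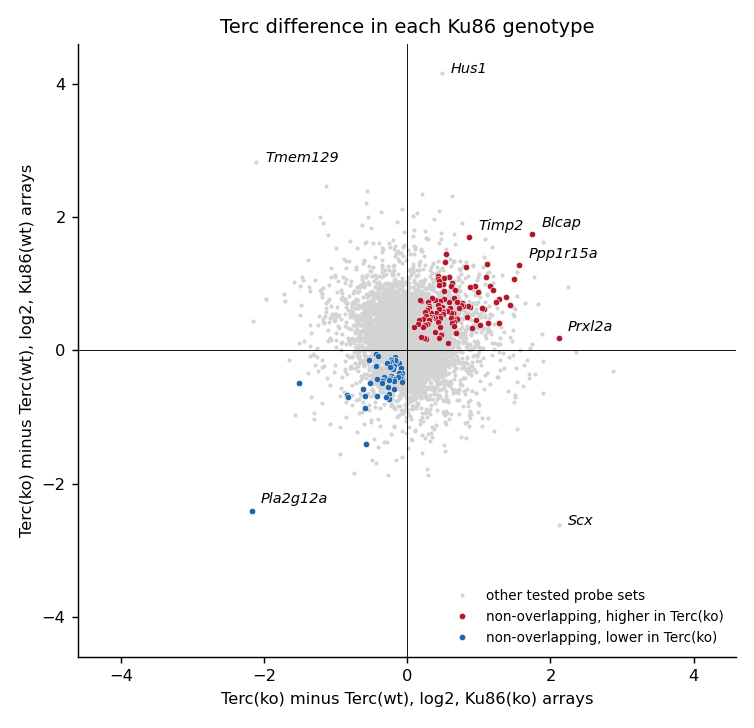
Log2 difference between Terc(ko) and Terc(wt) for each tested probe set among arrays labelled Ku86(ko) (horizontal axis) and among those labelled Ku86(wt) (vertical axis). Red and blue points are the 113 and 52 probe sets whose groups did not overlap, which must share a sign, and grey points are the others, over which the cloud is round (r = -0.0315 over all 7282).

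Most Sertoli cell and peritubular genes differed in the direction of a higher level in Terc(ko), and no gene of either list passed the test after adjustment. Of 21 tested Sertoli cell genes, 20 differed above 0 (57.5% over all genes), with a median of 0.44 against 0.04 over all 5530 genes. At an unadjusted p under 0.05, 9 of the 21 were higher and 0 lower, against 4.27% and 1.12% over all genes. Rhox5, Aard and Abca1, 3 of the 21, lay above without overlap and 0 lay below, against 1.63% and 0.723% over all genes. Rhox5, a homeobox gene of Sertoli cells, gave 222, 252, 233 and 252 in Terc(ko), against 109, 207, 151 and 179 in Terc(wt), a difference of 0.60 that was 0.38 without Ku86(ko)_Terc(wt) replicate 1. Aard gave 851, 657, 706 and 705 in Terc(ko), against 578, 611, 520 and 442 in Terc(wt), a difference of 0.44. The groups overlapped for Aard after median centring and for Abca1 in both other scalings. Rhox5 stayed apart in all 3 scalings. Ctsl, a protease that Sertoli cells secrete, and Clu differed by 0.85 and 0.71, and Wt1 and Gata4, transcription factors of Sertoli cells, by 0.67 and 0.44, with adjusted p between 0.904 and 0.911. The tight junction gene Tjp1, shared by many cell types, was the exception at -0.14.

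Peritubular, vascular and matrix genes gave a like picture, with 17 of 19 above 0 (57.5% over all genes) and a median of 0.45. Of the 19, 10 were higher at an unadjusted p under 0.05 in limma and 0 lower, against 4.27% and 1.12% over all genes. Without overlap, 3 lay above and 0 below, against 1.63% and 0.723% over all genes. The smooth muscle genes Myh11, Acta2 and Tagln differed by 1.34, 0.95 and 0.56, and Tagln separated the groups at 124, 183, 113 and 137 in Terc(ko), against 104, 111, 90.4 and 69.6 in Terc(wt). After median centring the Tagln groups overlapped. Lamb1, a laminin chain, gave 78.5, 99.6, 70.9 and 106 in Terc(ko), against 61.1, 57.2, 33.3 and 49.3 in Terc(wt), a difference of 0.84, and Timp2 also belongs to the list. Sparc and Dcn, both matrix proteins, differed by 1.01 and 0.76. Itgb1, an integrin subunit on many cells, is not in this list but had the largest difference of the integrin and cell adhesion list. That list had 12 of 19 above 0 (57.5% over all genes) and a median of 0.25. Itgb1 gave 609, 550, 406 and 312 in Terc(ko), against 276, 343, 116 and 185 in Terc(wt). Its difference of 1.10 had an unadjusted p of 0.000127 and an adjusted p of 0.287, and the groups overlapped through 1 array of each.

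Lists of meiotic and later germ cells had medians near 0 as deposited. Round spermatid genes had 5 of 18 above 0 with a median of -0.08, elongating spermatid genes 6 of 15 with -0.03, and genes of spermatocytes and meiosis 4 of 9 with -0.04, and no gene of these lists separated the groups. After median centring, which moved the median of all genes to -0.14, they had 0 of 18, 1 of 15 and 1 of 9 above 0, with medians of -0.26, -0.21 and -0.22. The 5 tested spermatogonial genes were all above 0, with a median of 0.55. This median was 0.23 on scan day 2 alone and 0.91 between the arrays of day 1, against 0.02 and -0.02 over all genes. Their median level on Ku86(wt)_Terc(ko) replicate 1 (-0.05) lay under that on Ku86(ko)_Terc(wt) replicate 2 (0.09). The 5 included Dazl, an RNA-binding protein of germ cells, at 696, 495, 414 and 531 in Terc(ko) and 330, 444, 272 and 379 in Terc(wt), where the groups overlapped. Leydig cell genes had 9 of 10 above 0 and a median of 0.20, but 5 of 10 and 0.02 both after median centring and on scan day 2 alone. Over all genes, 1601 of 5530 were above 0 after median centring and 2986 of 5530 on scan day 2 alone. With single arrays left out the Leydig median ran from 0.08 without Ku86(wt)_Terc(wt) replicate 1 to 0.40 without Ku86(ko)_Terc(wt) replicate 2. In RNA of mixed cells, more cells of a type and more RNA per cell cannot be told apart. This holds for whole testis and for the germ cells named in the scanner records.

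The arrays themselves did not fall cleanly into the Terc groups for these markers. The summed Sertoli signal ran from 4370 to 6707 in Terc(ko) and from 3257 to 5184 in Terc(wt), and the peritubular sum from 3494 to 4882 in Terc(ko) and from 2436 to 4069 in Terc(wt), and both overlapped. Relative to the mean of the 8 arrays, the median Sertoli gene stood at 0.34, 0.27, 0.18 and 0.30 in Terc(ko), against -0.32, 0.19, -0.46 and -0.36 in Terc(wt). The array of Ku86(ko)_Terc(wt) replicate 2 thus lay with the Terc(ko) arrays. Without it the Sertoli median was 0.71. For the peritubular genes the levels were 0.29, 0.57, 0.0019 and 0.10 in Terc(ko), against -0.13, 0.15, -0.60 and -0.34 in Terc(wt). Both Ku86(wt)_Terc(wt) arrays were the lowest for both lists.

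After quantile normalization the medians were 0.35 for Sertoli and 0.37 for peritubular genes, and after median centring both were 0.26, against -0.01 and -0.14 over all genes. Between the 2 arrays of scan day 1, 1 of each Terc genotype, they were 0.56 and 0.36, and among the 5 arrays of day 2 they were 0.29 and 0.35. How far the somatic markers account for single genes above, such as Timp2, Cadm1 and Spi1, was not tested.

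**Figure D4:**
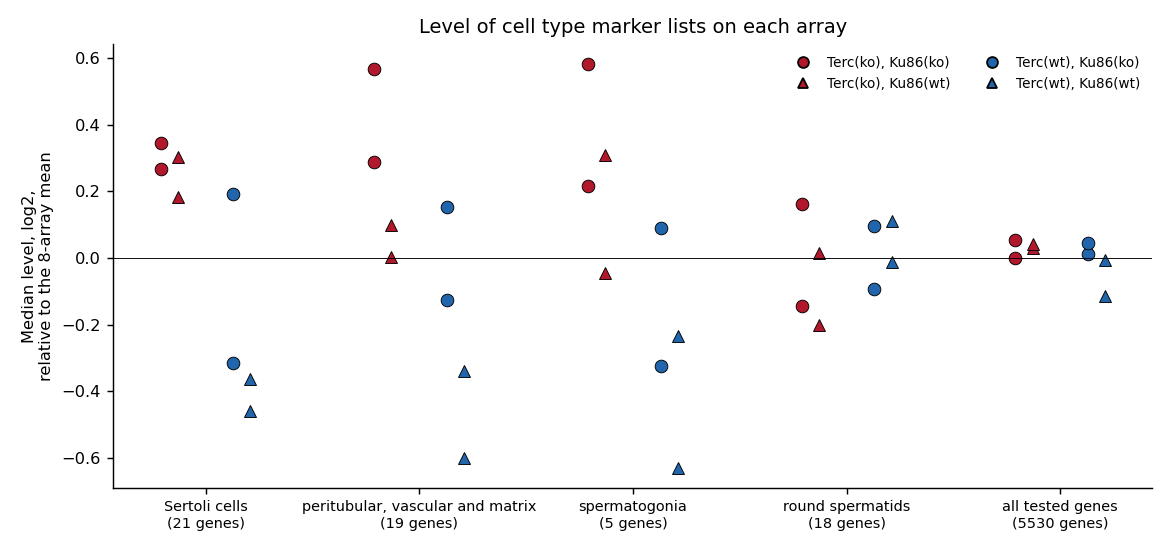
Median log2 level of the genes of 4 marker lists and of all 5530 tested genes on each array, relative to the mean of the 8 arrays (vertical axis). Red symbols are Terc(ko) and blue Terc(wt), circles are labelled Ku86(ko) and triangles Ku86(wt). For the Sertoli list the Terc(ko) arrays lay at 0.18 to 0.34, and 1 Terc(wt) array, Ku86(ko)_Terc(wt) replicate 2 at 0.19, lay among them.

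No gene of the telomere or damage response lists passed the test after adjustment. The telomerase and telomere binding list had 5 of 9 above 0 and a median of 0.08. Tert, the protein subunit of the enzyme, gave 142, 104, 172 and 115 in Terc(ko), against 127, 124, 91.7 and 96.8 in Terc(wt), a difference of 0.26 (adjusted p 0.967). Gar1, a protein of the small nucleolar and telomerase ribonucleoproteins, had the largest difference of the list at 0.94 (unadjusted p 0.00577, adjusted p 0.894), with 1036, 553, 577 and 455 in Terc(ko) and 234, 432, 469 and 234 in Terc(wt). Its groups overlapped through a single pair of arrays.

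Targets of p53 had 8 of 11 above 0 with a median of 0.19, against 0.04 over all genes. The list median became 0.03 after quantile normalization and 0.0048 after median centring, against -0.01 and -0.14 over all genes. The cell cycle inhibitor Cdkn1a differed by 0.04, while Sesn1 and Btg2, which restrain growth, differed by 0.64 and 0.61, with adjusted p of 0.904 and 0.911. The list of cyclin-dependent kinase inhibitors and senescence genes had 1 of 9 above 0 and a median of -0.21. With single arrays left out, the median of the p53 list came down to 0.046 without Ku86(ko)_Terc(wt) replicate 2, and that of the inhibitor list lay at -0.063 without Ku86(wt)_Terc(ko) replicate 2. Cdkn1c made its largest difference at -0.48, with 998, 915, 1086 and 731 in Terc(ko) and 960, 880, 2206 and 1491 in Terc(wt). Both Ku86(wt)_Terc(wt) arrays were high and the other six alike.

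Repair and growth genes contributed a few separated members. Brca2, a mediator of homologous recombination, gave 517, 558, 483 and 482 in Terc(ko), against 467, 474, 402 and 438 in Terc(wt), a difference of 0.20 that overlapped after median centring. Foxo3, a transcription factor restrained by insulin signalling, gave 102, 124, 124 and 111 in Terc(ko), against 71.1, 98.8, 49.2 and 63.6 in Terc(wt), a difference of 0.75 that stayed apart in all 3 scalings. The insulin-like growth factor list to which it belongs had 9 of 11 above 0 and a median of 0.41. Mcl1, which protects cells from apoptosis, differed by 0.38, and Aurka, a mitotic kinase, by -0.16, with Terc(ko) at 1155 to 1332 and Terc(wt) at 1359 to 1402. The groups overlapped for Mcl1 after median centring and for Aurka in both other scalings. The unadjusted limma p was 0.196 for Brca2, 0.0099 for Foxo3, 0.094 for Mcl1 and 0.238 for Aurka. Proliferation genes had 9 of 25 above 0 (median -0.08), apoptosis genes 11 of 20 (0.06) and oxidative phosphorylation genes 14 of 34 (-0.02). Over all 24 lists, limma called 0 of 333 tested genes.

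**Figure D5:**
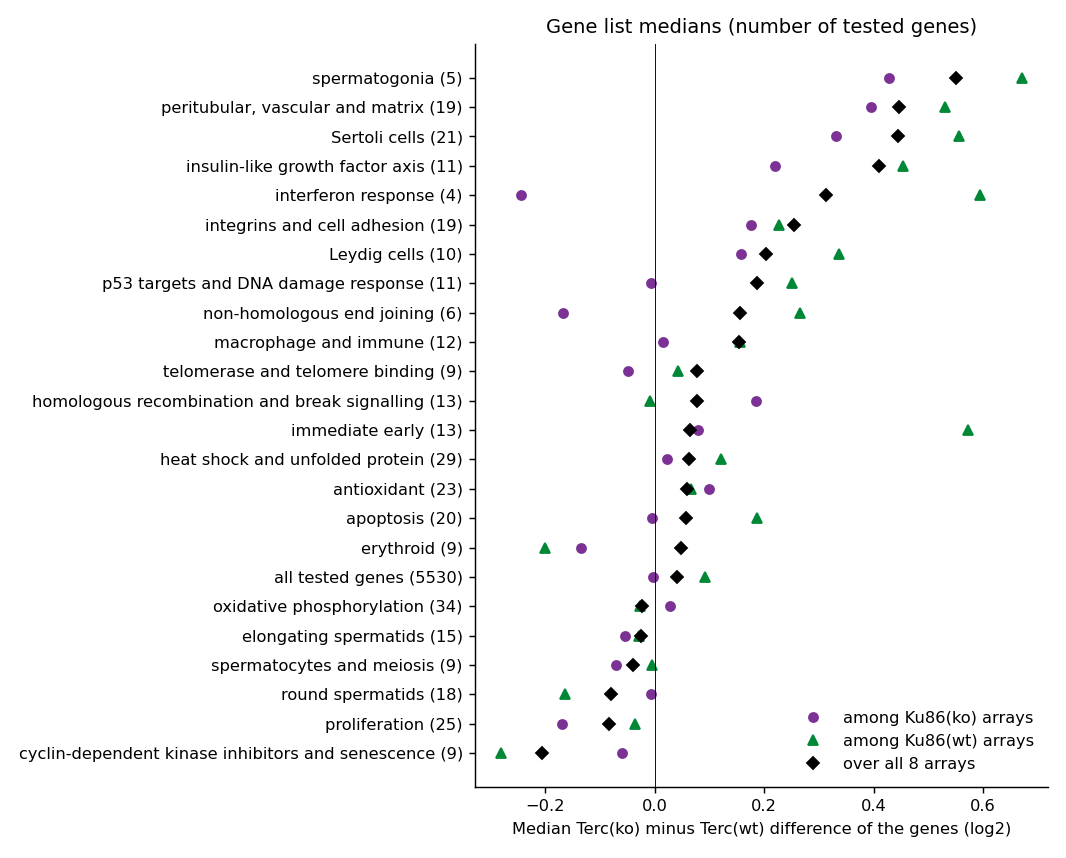
Median log2 difference between Terc(ko) and Terc(wt) of each gene list (horizontal axis) over all 8 arrays (black diamonds), among arrays labelled Ku86(ko) (purple circles) and among those labelled Ku86(wt) (green triangles), with the number of tested genes. Lists with under 4 tested genes are left out. Sertoli cells (0.44) and the peritubular list (0.45) lay above the all-gene median of 0.04, and the cyclin-dependent kinase inhibitors (-0.21) below it.

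The separated genes were spread over the genome. In the GRCm38.p6 gene table, 102 genes above and 45 below were placed among 5523 tested genes, or 1.85% and 0.815%. By chromosome, the share above ran from 0.855% on chromosome 4 to 3.45% on X, leaving out Y with 2 tested genes, and the share below was at most 1.56%, on chromosome 11. Pla2g12a lies on chromosome 3, as Terc does, 59 tested genes away. That chromosome held 8 genes above and 4 below of 279 tested, shares of 2.87% and 1.43%. Of the 20 tested genes nearest to Terc, 10 on each side, 1 was above (Acp6, a lysophosphatidic acid phosphatase, 0.35) and 1 below (Pde4dip, an anchor of the centrosome and Golgi, -0.33). The median difference of the 20 was -0.01.

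At the edge of the rule, Rhoa, a small GTPase of the cytoskeleton, was just inside, with 223, 295, 241 and 236 in Terc(ko) and 198, 217, 137 and 223 in Terc(wt). Sars2, a mitochondrial seryl-tRNA synthetase, was just outside, since Terc(ko) at 77.7, 79.1, 99 and 177 and Terc(wt) at 77.7, 69.5, 32.3 and 73.2 met at one value.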

How the data were processed

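The samples were total RNA of mouse testis. Per the scanner records, which call the samples germ cells, 15 micrograms of cRNA were hybridised per array. The authors deposited 1 intensity per probe set and array on a linear scale, scaled so that the mean without the top and bottom 2% lay near 200 on each array (199.5 to 199.9 here). No source used here names the program.

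Before the log2 transform, intensities under the pooled 20th percentile were raised to that value, 11.8. The table lists 12488 probe sets, from which 66 controls and 5140 with a mean under the pooled 40th percentile (38.1) were left out, and 7282 were tested with limma 3.58.1 in R 4.3.3 (1 mean per genotype, eBayes with a trend, two-sided, Benjamini-Hochberg over all tested). The Terc effect was averaged over Ku86 genotypes. A probe set was not overlapping when all 4 floored Terc(ko) values lay above, or all below, the 4 Terc(wt) values. A gene in a list was represented by its brightest tested probe set. Symbols came from the platform annotation (10855 probe sets with 1 symbol, 396 with several, 1237 unlisted), updated through Entrez IDs for 10839.

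Arrays came from separate animals, 1 of them a pool of 3 mice, and their small number and the scan days limit the precision. Scan day 1 held Ku86(ko)_Terc(ko) replicate 1 and Ku86(ko)_Terc(wt) replicate 1, day 3 held Ku86(wt)_Terc(wt) replicate 1, and day 2 held the other 5. The chip lot changed with the day. Named were Xrcc5, called genes, the 15 largest non-overlapping differences in each direction with 1 symbol, genes whose tested probe sets all separate, separating members of 24 gene lists and the 4 smallest interaction p. Genes of lists that did not separate, the edge of the rule and the genes nearest to Terc were picked after their values were seen. The members and lists were chosen with earlier results of these data known. The model was tested on simulated data. Alternatives covered scaling, floor, filter, variance trend, model terms, blocks and each array left out.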

Additional observations from a re-analysis of the deposited data

Results flagged for a closer look

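In 3 of the named genes, 1 of the 4 Terc(wt) arrays stood far from the others. Chance alone flags about 1 in 20 such groups of 4, so a few flags are due by chance among 45 named probe sets. Timp2 was lowest on Ku86(wt)_Terc(wt) replicate 1, at 19.7, while the other Terc(wt) arrays gave 48.9 to 56.9. Prxl2a was lowest on Ku86(ko)_Terc(wt) replicate 2, at 17.8, against 88.3 to 101 on the others. Trp53i13 was highest on Ku86(wt)_Terc(wt) replicate 1, at 323.3, against 191 to 194 on the others. What set these values apart was not tested.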

How the results depend on the processing

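With the filter dropped, 4 probe sets were called for the Terc effect and 8 for the interaction. The Terc count was 0 without the variance trend and 0 with scan day as a block, and 8 on scan day 2 alone, where 1 residual degree of freedom remains. It was 1 under quantile normalization, median centring and both other floors. Leaving out single arrays gave 0 to 3 Terc calls (0 without Ku86(wt)_Terc(wt) replicate 2, 3 without Ku86(ko)_Terc(ko) replicate 2, 2 without Ku86(ko)_Terc(wt) replicate 2) and 0 to 1 interaction calls.

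Non-overlapping probe sets numbered 96 above and 126 below after quantile normalization, 78 and 349 after median centring, and 127 above with the floor at the 40th percentile. There were 113 above among probe sets past the filter. Fewer arrays separate more easily: 1014 and 680 on scan day 2 alone, and 275 to 631 above and 113 to 183 below with 1 array left out.

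Equal replicate numbers did not pair the arrays (correlations of deviations 0.0126 to 0.254). With the replicate block, 1 probe set was called for Terc and 0 for the interaction. Tmem129, at 0.36, ran from -0.12 (without Ku86(wt)_Terc(ko) replicate 2) to 0.84 with single arrays left out. Scx, at -0.25, reversed to 0.0297 with scan day as a block and ran from -0.68 to 0.18 with single arrays left out, being above 0 without Ku86(ko)_Terc(ko) replicate 2 (0.12), Ku86(wt)_Terc(ko) replicate 1 (0.18) or Ku86(wt)_Terc(wt) replicate 1 (0.0297). Ppp1r15a (1.88, adjusted p 0.0135) and Prxl2a (1.87, 0.0289) passed on scan day 2 alone, and Hus1 (2.67, 0.0272) without Ku86(ko)_Terc(ko) replicate 2. The causes were not tested. Of the values of 45 named probe sets under alternatives, 798 kept direction and side of the threshold. Most of the 45 were named because their groups do not overlap, which fixes their direction with 1 array left out. Only 1 of them was called to begin with, so keeping side mostly meant staying uncalled. Of the list medians, 389 stayed, while 19 moved.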
